A study of Caenorhabditis elegans with 2 samples.

Results

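In L2 larvae of Caenorhabditis elegans, 350 reproducible binding peaks of the transcription factor SEM-4 lay inside introns and outside promoter windows of protein-coding genes. They were 14.1% (95% exact binomial interval 12.7 to 15.5) of the 2490 peaks in the authors' thresholded list. A peak was counted when its summit lay in an intron of a protein-coding gene and in no exon of any gene. The summit also had to lie outside the window from 1000 bp upstream to 200 bp downstream of every protein-coding transcript start. These peaks are called distal intronic below. Of 516 reproducible summits in introns, the other 166 lay in such a promoter window. With windows at transcript starts of every biotype, non-coding ones included, 262 of the 350 would remain. In the same list, 588 summits were distal intergenic and 1376 lay in promoter windows.

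The measurement was chromatin immunoprecipitation followed by sequencing (ChIP-seq) of eGFP-tagged SEM-4 in whole animals. There was 1 group of 2 replicates, and whether they came from separate cultures is not stated. Both were of strain OP57, which carries unc-119(ed3) III and the integrated transgene wgIs57 that holds tagged sem-4. Both replicates were L2 larvae of mixed sex, and their exact age is not known. No untagged strain, mutant or second stage enters these comparisons, and the control library was not analysed here. The tagged protein came from an inserted transgene, and a peak in whole larvae does not tell which cells carried it.

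SEM-4 is a zinc-finger protein of the Spalt family. Genetic work in C. elegans places it in neurons, in the mesodermal lineage that makes the egg-laying muscles, and in the rectal Y cell. Introns of worm genes, above all long ones near the 5′ end, are known to hold enhancers and the promoters of shorter transcripts. An intronic peak can therefore serve its host gene, another transcript of it or a neighbour, and the host named below is only the gene around the summit.

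The 4 stretches of 101 bp centred on summits below are shown because they come from the strongest peaks and differ in their letters. Capitals mark GACGCA read on the opposite strand, one of the words that was more frequent at summits than beside them. The Y111B2A.12 and Y43F8B.2 stretches hold it and the zfp-1 and egl-5 stretches do not. None of the 4 holds GAGAGA on either strand. The sequences are from the RefSeq assembly of WBcel235, which has the chromosome lengths of ce11.
Y111B2A.12 (chrIII:12612607-12612707, plus strand): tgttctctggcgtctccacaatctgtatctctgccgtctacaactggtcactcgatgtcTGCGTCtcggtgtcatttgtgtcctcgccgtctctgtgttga
Y43F8B.2 (chrV:19529345-19529445, plus strand): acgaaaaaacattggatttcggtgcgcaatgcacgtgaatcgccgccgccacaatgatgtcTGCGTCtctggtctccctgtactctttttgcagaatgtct
zfp-1 (chrIII:8795803-8795903, plus strand): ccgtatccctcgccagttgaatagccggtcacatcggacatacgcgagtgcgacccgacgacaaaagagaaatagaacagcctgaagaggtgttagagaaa
egl-5 (chrIII:7815734-7815834, plus strand): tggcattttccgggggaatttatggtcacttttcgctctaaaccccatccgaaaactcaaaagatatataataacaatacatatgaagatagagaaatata

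Of the words that were more frequent at summits than beside them, GAGAGA was present at the most summits. The next 5 stretches of 29 bases are read along the strand that carries it, with GAGAGA and its run-on repeats in capitals, and come from peaks of high signal. In kin-20 and K01F9.2 the word was part of a longer GA repeat, and in ldb-1, zfp-1 and lag-1 it stood alone or beside near-repeats.
ldb-1 (chrX:11031382-11031410, plus strand): tggctgggagagGAGAGAcaggcacccgg
zfp-1 (chrIII:8800229-8800257, plus strand): gatggaatagacGAGAGAagagagtacag
kin-20 (chrX:15276935-15276963, minus strand): GAGAGAGAGAgtGAGAGAggagaaagcgt
K01F9.2 (chrIII:8874420-8874448, plus strand): gtgtgtgtgtgtGAGAGAGAGAGAgtgtc
lag-1 (chrIV:6097228-6097256, minus strand): ggccgttgaaaaGAGAGAaaaaggggagg

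Signal is the authors' value for each peak in their pooled list, with no stated unit, and it has no replicate error of its own. The median signal of the 350 distal intronic peaks was 54.5, with quartiles of 46.4 and 72.7 and a range from 40.3 to 698. It was 57.7 over all 2490 reproducible peaks, 54.7 for distal intergenic and 59.8 for promoter-window peaks. The higher-signal 1245 reproducible peaks included 154 (44%) of the distal intronic peaks, and the 100 highest included 11. Distal intronic peaks were thus spread over the whole range of the list and reached near its top.

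One peak stood far above the others. In intron 4 of Y111B2A.12, on chromosome III with its summit at 12612657, the pooled signal was 698. Replicate 1 gave 418 and replicate 2 gave 293 at the overlapping peak, which was rank 7 and rank 3 of their lists. This summit lay 3368 bp downstream of the start of Y111B2A.12. The signal scale is set separately in each list, so ranks rather than signal values compare the replicates.

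egl-5, an Abdominal-B-like Hox gene that patterns the posterior body, held the peaks at places 2 and 4 by signal among the distal intronic ones. Its distal intronic summits had pooled signals of 233 and 221. Replicate 1 gave 497 and 130 and replicate 2 gave 151 and 128 at the nearest summits. Both belong to a single block of 2681 bp that covers nearly the whole gene and holds 5 reproducible summits. The GC content of their 101-bp windows was 33.7% and 35.6%, below the mean of 45.5% ± 8.0 (SD, n = 350). Whether this block reflects SEM-4 occupancy was not tested. Leaving both summits out changed no motif call and gave 42 rather than 40 words that were more frequent at summits.

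zfp-1, which encodes a PHD-finger chromatin protein related to AF10, held the peak at place 3. Its pooled signal was 231, with 164 in replicate 1 and 84.6 in replicate 2, or ranks 32 and 48. A further zfp-1 peak had a pooled signal of 155, with 80.2 and 66.4 in the replicates. pqn-41, which encodes a glutamine-rich protein known for its part in linker cell death, had peaks with pooled signals of 207, 154 and 140 among the 20 highest. All 5 of its peaks lay in the same intron of 7776 bp. The closest of their summits were 205 bp apart, in peaks that overlap.

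Several of the remaining high peaks lay in signalling or gene-regulatory genes. mom-1, whose product acylates Wnt ligands, had a pooled signal of 178 in intron 7, at rank 44 in replicate 1 and 222 in replicate 2. ldb-1, a cofactor of LIM-homeodomain proteins, had 160 in its first intron, with ranks of 107 and 145. mnk-1, whose vertebrate homologs phosphorylate the translation factor eIF4E, also had 160, with ranks of 82 and 228. sma-9, the Schnurri homolog that acts in body size and the postembryonic mesoderm, had 156, with ranks of 101 and 216. aak-2, a catalytic subunit of the energy sensor AMPK, had 142, with ranks of 155 and 92. All of these lay in the first 300 places of both replicates.

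The 20 highest were completed by genes of other kinds or of no annotated role in the files. Y41G9A.17 had a pooled signal of 219, Y43F8B.2 had 209 and T28F4.1 had 204. The ubiquilin gene ubql-1 had 189, the dynein heavy chain gene dhc-4 had 177, F09A5.3 had 159 and Y56A3A.7 had 150. Of the 20 highest, 14 were narrower than the 350 bp that 326 of the 350 peaks shared. The 21 narrow peaks had a median signal of 154 and the peaks of 350 bp one of 53.0. The part of the calling step in this was not tested.

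**Figure D1:**
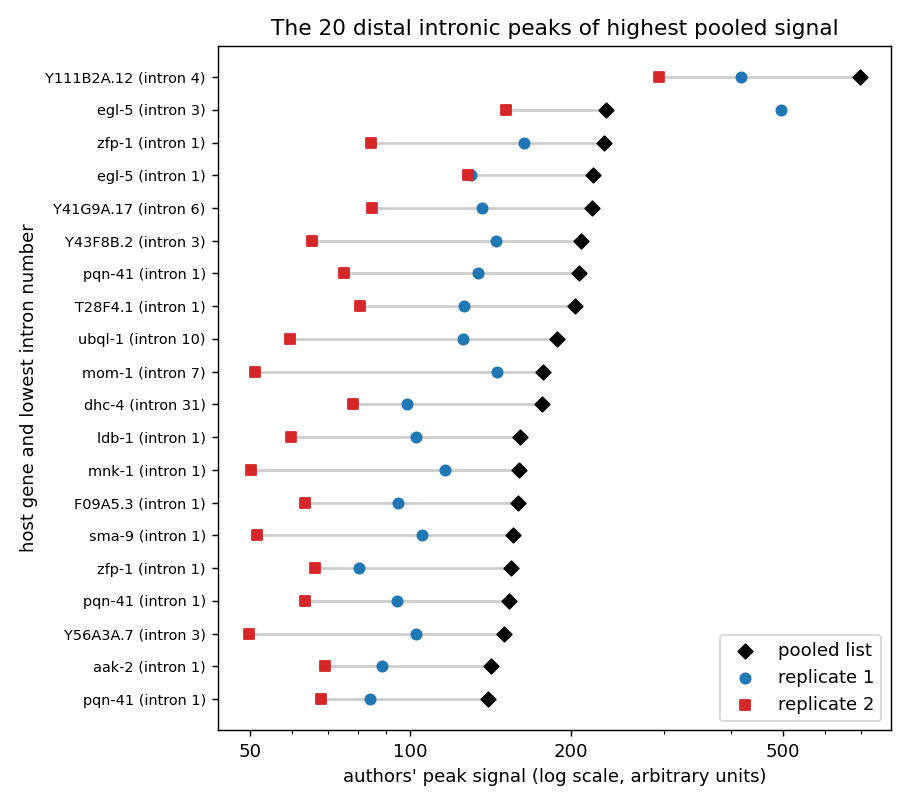
Signal of the 20 distal intronic peaks of highest pooled signal, on a log axis, in the pooled list (diamonds) and at the nearest overlapping peak in replicate 1 (circles) and replicate 2 (squares). Each list has its own scale. The peak in Y111B2A.12 is the highest at 698, and the egl-5 summit of 233 is the only one whose replicate 1 value, 497, is above the pooled one.

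The replicates placed these peaks unevenly. For each peak the best-ranked overlapping peak in a replicate's own list of 30000 was taken. Of the 350, 205 (58.6%, interval 53.2 to 63.8) were in the first 2490 places of both replicates. Another 80 were in the first 2490 places of replicate 1 only, 49 of replicate 2 only, and 16 of neither. The share in both was 61.9% for all reproducible peaks, 56.8% for distal intergenic and 65.3% for promoter-window peaks. The interval for distal intronic peaks contains the first 2 of these values and not the last. Neighbouring peaks could share a best-ranked overlapping peak, as both mom-1 peaks did at ranks 44 and 222. With summits matched within 100 bp, the share of distal intronic peaks in both was 51.7%, below that interval.

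A relaxed peak of both replicates overlapped 345 of the 350. Across these 345, with the nearest overlapping summit taken in each replicate, Spearman's rho between the signals was 0.37, and it was 0.44 over the 2475 such reproducible peaks. These peaks were chosen by pooled signal from the same reads, so rho describes the chosen set only. An uneven case was kin-20, a casein kinase 1 gene, with a pooled signal of 130 and ranks of 636 and 53 in replicates 1 and 2. W06H8.6, with 133, was at rank 118 in replicate 1. In replicate 2 its best-ranked overlapping peak was at 337 and the one with the nearest summit at 4289, so its place depends on the matching rule. Both were chosen after their values were seen.

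**Figure D2:**
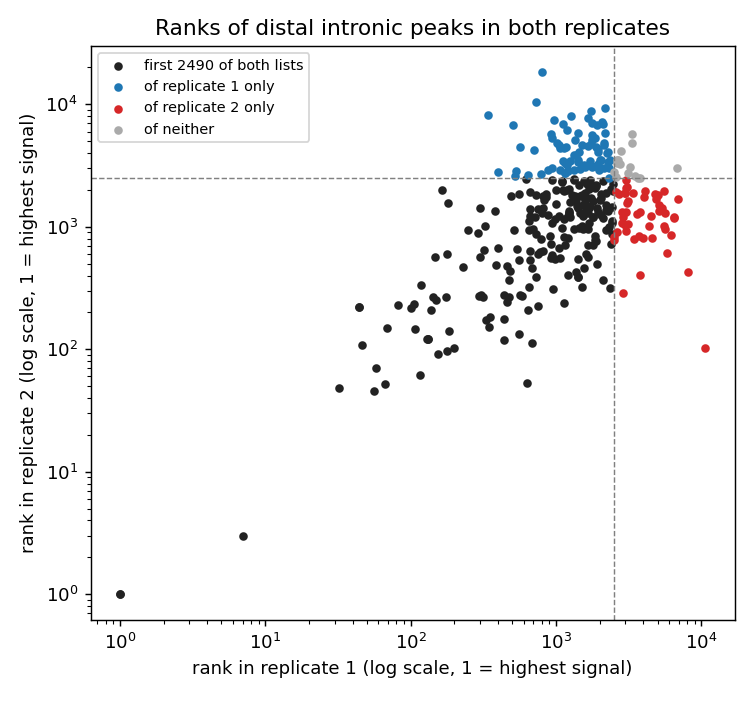
Rank of each distal intronic peak in replicate 1 and replicate 2, on log axes, for the 345 peaks found in both lists, with the best-ranked overlapping peak taken in each. Dashed lines mark rank 2490. Black points, in the lower left, are in the first 2490 places of both lists, and the cloud widens towards lower signal.

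The 350 peaks lay in 265 host genes, and 2 peaks lay in introns of overlapping genes. Of 3687 protein-coding genes with any distal intronic summit in the pooled relaxed list of 30000 peaks, these 265 were 7.19%. The authors name that list as peaks and background, so it holds background regions as well. A single peak was found in 216 hosts, and 49 hosts held 2 or more. Those 49 held 136 of the peaks. Within 1000 bp of another reproducible summit lay 58 of the 350, and each summit was counted separately. Long genes with many relaxed summits had more chances to hold several.

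The largest numbers, 6 each, were in ncl-1 and lin-14. ncl-1 encodes a TRIM-NHL protein that limits nucleolar size. All 6 of its peaks lay in first introns of one of its transcripts, between 7721034 and 7728614 on chromosome III, with signals from 42.0 to 78.2. lin-14 encodes the nuclear factor that is repressed by the lin-4 miRNA and sets early larval fates. Its 6 peaks spread over 16283 bp and 3 introns, with signals from 40.5 to 75.2, and 19 relaxed distal intronic summits lay in the gene. The distal intronic peaks of both genes were therefore many and of moderate signal, with no single strong one. Each gene body held 7 reproducible summits in all, and those that were not distal intronic are not described here.

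Of the genes with 4 or 5 peaks, several encode regulators. pqn-41 had signals from 76.9 to 207 over 5143 bp. daf-5, a Sno/Ski-family partner of the SMAD protein DAF-3 in dauer formation, had 4 peaks from 49.4 to 138. aakg-1, an AMPK gamma subunit gene, had 4 from 72.7 to 119 over 18751 bp. egl-27, related to the MTA subunit of the NuRD chromatin complex, had 4 from 50.01 to 111, which were 4 of the 6 relaxed distal intronic summits in the gene.

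hlh-30, the TFEB homolog that controls autophagy and lysosome genes, had 4 peaks from 58.7 to 91.5 in a single intron. The cGMP-dependent kinase gene pkg-2 had 4 from 44.8 to 98.4, also in a single intron. The DYRK-family kinase gene mbk-2 had 4 from 50.2 to 78.3. lsy-22, a Groucho-related corepressor gene, had 4 from 43.6 to 55.0, the lowest top value of these hosts. zfp-1 had 4 from 42.3 to 231 and Y56A3A.7 had 4 from 44.1 to 150.

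Another 9 genes held 3 peaks each. Y111B2A.12 ranged from 47.0 to 698, ubql-1 from 68.7 to 189 and the nuclear receptor gene nhr-19 from 75.2 to 136. T28B11.1, C07A9.9, F57A8.1, F53E4.1, F49E2.5 and the forkhead gene fkh-7 had highest signals between 56.8 and 86.1.

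**Figure D3:**
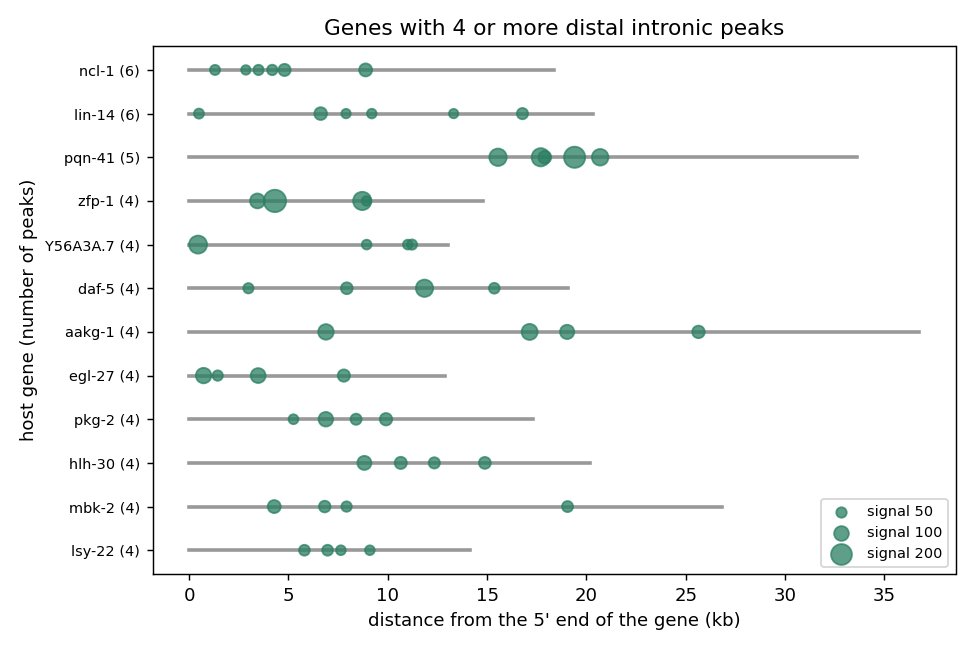
Position of each distal intronic peak along the 12 host genes with 4 or more, as distance in kb from the 5′ end of the gene, with the gene drawn as a grey line and point area in proportion to signal. The 5 pqn-41 peaks sit together within 5143 bp, while the 6 lin-14 peaks spread over 16283 bp.

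Groups of related genes were described by how many of their members with a relaxed distal intronic summit also held a reproducible one, beside the 7.19% over all genes. Per summit, the matching value was 4.35% (350 of 8055), against 8.3% of all 30000 relaxed summits. No group was tested, and signal itself set which summits are reproducible.

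Heterochronic regulators, which time larval fates, had a reproducible distal intronic peak in 4 of 8 genes. daf-12, the steroid hormone receptor gene, had a signal of 106, with 67.6 in replicate 1 and 46.9 in replicate 2. lin-29, the zinc-finger gene of the larval-to-adult switch, had 66.1, and lin-42, the Period homolog, had 43.0. lin-14 is described above. Of all relaxed distal intronic summits in this group, 9 of 68 were reproducible, 6 of them in lin-14.

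Insulin and AMPK signalling genes had one in 5 of 10. They were aak-2 at 142, the FOXO gene daf-16 at 135, aakg-1 at 119, the kinase gene pdk-1 at 75.4 and the insulin receptor substrate gene ist-1 at 43.2. daf-16 had ranks of 185 and 141 in the replicates, while ist-1 had 1958 and 4298. Per summit, 10 of 65 were reproducible.

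Nuclear hormone receptor genes had one in 11 of 54, and 13 of 139 summits were reproducible. The highest were nhr-3 at 138, nhr-19 at 136, nhr-46 at 119 and nhr-14 at 112. daf-12 belongs to this group as well. The other 6 genes, nhr-1, nhr-23, nhr-40, nhr-34, nhr-49 and nhr-48, lay between 41.4 and 54.3.

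Axon guidance and adhesion genes had one in 8 of 31, all of them at or below 68.7. Among these 8 is unc-119, the gene mutated in the strain, which is taken up below. sax-7, the L1CAM homolog, had 68.7, unc-53, the neuron navigator homolog, had 53.4, the Eph receptor gene vab-1 had 53.3 and the netrin gene unc-6 had 50.9. Per summit the count was 9 of 169, or 5.33%, near the 4.35% over all summits.

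Smaller groups had 1 or 2 such genes. In the TGF-beta pathway these were daf-5 at 138 and the SMAD gene daf-14 at 91.0, of 8 genes. Among vulval EGF and Notch genes they were lag-1, the CSL transcription factor of Notch signalling, at 112 and the ERK gene mpk-1 at 93.8, of 9. Wnt genes had the ROR receptor gene cam-1 at 57.3 and the Nemo-like kinase gene lit-1 at 41.4, of 15. Hox genes had egl-5 and the posterior gene nob-1, the latter at 54.9, of 5, and both egl-5 summits belong to the block described above. egl-27 was the 1 of 4 NuRD and related chromatin genes, and the 1 of 5 in a list of Y-to-PDA factors that left out egl-5. Per summit, 5 of 27 were reproducible in the TGF-beta pathway, 4 of them in daf-5, and 2 of 25 among vulval genes. Wnt genes had 2 of 45, or 4.44%, near the 4.35% over all summits. Hox genes had 4 of 18, 2 of them in egl-5. The 4 of 9 NuRD and related summits, and the 4 of 12 in the Y-to-PDA list, were all in egl-27.

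Genes for neuronal function, muscle genes and a homeobox list that left out egl-5 and nob-1 had shares from 4% to 11.8%, beside 7.19% over all genes. Per summit their shares were from 1.75% to 3.51%, all below the 4.35% over all summits. Neurotransmitter receptor genes had 1 of 23, the GABA receptor gene unc-49 at 43.3. Synaptic genes had 2 of 17, sad-1 at 40.7 and cla-1 at 40.4. Ion channel genes had 2 of 21, unc-79 at 51.2 and egl-23 at 40.8. Muscle genes had 1 of 16, the tropomyosin gene lev-11 at 57.7. Homeobox genes of that list had 1 of 25, the POU gene ceh-18 at 42.4. These counts are small and moved with 1 library. Without replicate 1, neurotransmitter receptor and homeobox genes had 0 and synaptic genes 1. Without replicate 2, muscle and homeobox genes had 2 each.

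Cuticle collagen genes had 1 of 16, col-85 at 55.4, and seam and epidermal regulators had 1 of 12, nhr-23 at 53.1. The sex myoblast and M lineage group had 1 of 9, sma-9, and the genetic targets of SEM-4 together with HSN regulators had 1 of 6. That gene is egl-5, so the count rests on the block whose occupancy was not tested. Per summit, collagen genes had 1 of 16 and seam and epidermal regulators 1 of 34. The M lineage group had 1 of 20 and the SEM-4 target and HSN group 2 of 31. Of 83 cytosolic ribosomal protein genes only 1 had a relaxed distal intronic summit, and none had a reproducible one. Leaving out 1 library moved these small counts too. Seam and epidermal regulators had 3 without replicate 1 and 0 without replicate 2, and collagen genes had 0 and 2. The SEM-4 target and HSN group had 2 with either replicate left out, and the M lineage group had 2 without replicate 1.

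Genes of the strain itself were looked up because the transgene and its marker carry copies of genomic DNA. No summit of any list lay within sem-4. unc-119, the gene mutated in the strain, held 1 distal intronic peak with a pooled signal of 49.99, at ranks 1933 and 3268 in the replicates. Whether a copy of unc-119 contributed to that signal was not tested.

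The introns that held these peaks were long. Their median length was 3475 bp, with quartiles of 1387 and 7309 bp, against 1229 bp for the 7705 distal intronic summits of the pooled list that were not reproducible. That list includes background, so here and below these 7705 need not be weaker binding sites. Of relaxed summits in introns of 5000 bp or more, 7.66% were reproducible, as were 6.68% in introns of 2000 to 4999 bp. The share was 2.43% from 500 to 1999 bp and 2.55% below 500 bp. Introns of 5000 bp or more held 130 of the 350 peaks and made up 12.4% of all distal intron sequence.

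**Figure D4:**
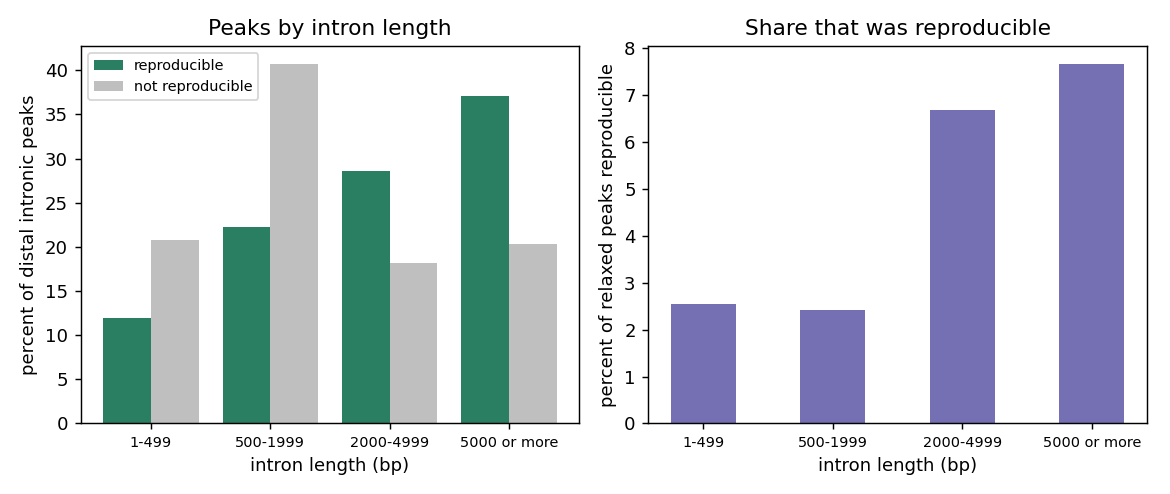
Left, percent of reproducible (n = 350) and not reproducible (n = 7705) distal intronic peaks by length of the intron in bp. Right, percent of relaxed distal intronic peaks that were reproducible in each length class, which is 2.55%, 2.43%, 6.68% and 7.66% from short to long.

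A first intron of at least 1 transcript held 179 of the 350 summits (51.1%, interval 45.8 to 56.5). The share was 37.5% of the summits that were not reproducible, and first introns made up 28.6% of distal intron sequence. When only the longest transcript of each gene numbered the introns, the shares fell to 28.9% and 23.6%. For 204 peaks (58.3%), an annotated start of the host gene lay further downstream, against 36.2% of the summits that were not reproducible. Many of these introns thus lie upstream of a shorter transcript of the same gene.

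The place within the intron was similar in both sets. The median relative position from the 5′ end was 0.466 for reproducible and 0.466 for not reproducible summits. The nearest protein-coding start was a median of 1769 bp away, against 1648 bp. Sequence masked as repeat, in lower case in the RefSeq genome, held 60 of the 350 summit bases (17.1%), against 48.7% of the not reproducible ones.

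Chromosomes III and X carried the most, with 79 and 77 peaks, or 17.9 and 17.2 per Mb of distal intron sequence. They also carried the most of all 2490 reproducible peaks, with 461 and 548, so this order was not particular to distal intronic peaks. Chromosome IV had 13.3 per Mb and chromosome II had 11.8. Chromosomes I and V had 9.52 and 9.35 per Mb. The egl-5 block accounts for 2 of the 79 on chromosome III.

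Sequence at the summits differed from sequence beside them. For each peak, 96 start positions around the summit were compared with 48 in each of 2 flanks centred 200 bp away, on both strands. GAGAGA was present at the summit of 124 peaks (35.4%) and in the flanks of 44 (12.6%). It was at the summit only in 104 and in the flanks only in 24 (exact McNemar test, two-sided, adjusted p = 2.29e-12 over 5 motifs). The p-values are over peaks of the pooled list, not over animals, and treat neighbouring peaks as independent. With 1 peak per host gene, GAGAGA was at the summit only in 84 and in the flanks only in 17 (exact McNemar adjusted p = 3.93e-11). The stretches of ldb-1, zfp-1, kin-20, K01F9.2 and lag-1 printed above are examples.

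Of the other motifs, ATATT, the AT-rich site of vertebrate SALL4, was less frequent at summits. It was at the summit only in 36 peaks and in the flanks only in 72 (exact McNemar adjusted p = 0.00171). Words without G or C were in general less frequent at summits, as given below, and ATATT was near their median. TTGTCT or TTGTGT, a site described for SEM-4, was at the summit only in 63 and in the flanks only in 40 (exact McNemar adjusted p = 0.0495). That call was lost under 5 of 10 alternatives, with adjusted p from 0.0669 to 0.443 in those 5. It was 0.148 without replicate 1. The E-box CACGTG, at 19 against 9, and the GATA-type TGATAA, at 17 against 26, did not pass (exact McNemar adjusted p = 0.109 and 0.222). CACGTG passed under 5 of 10 alternatives, without replicate 1 among them (exact McNemar adjusted p = 0.0068), and TGATAA under 2, without replicate 2 among them (0.04998).

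Of all 6-letter words, counted with their reverse complements, 40 (1.92%) were more frequent at summits and 39 (1.88%) less frequent (exact McNemar test, adjusted p under 0.05 over all words). At an unadjusted p under 0.05 there were 309 in all. In the 2490 highest peaks of replicate 1 alone, 23 were higher and 24 lower, and 16 of those 23 were among the 40. GAGAGA had the smallest p. AGAGAC was at the summit only in 84 peaks and in the flanks only in 19, and GACGCA in 52 and 9. Of the 40, 20 held GAGA or ACGC on either strand. Of the 39 that were lower, 29 held at most 1 G or C, and AAAAAA, at 38 against 115, was among them.

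Called words that overlap GACGCA could be joined into a word of 10 letters, which was chosen after the calls were seen and was not tested. It was present at the summits of 32 distal intronic peaks (9.14%) and in the flanks of 2. It was at the summits of 7.82% of distal intergenic and 8.28% of promoter-window peaks, and of 0.74% of the distal intronic summits that were not reproducible. The word is shown in capitals on the strand that carries it, with 10 bases on each side, for 5 peaks. The first is the distal intronic peak of highest signal, in Y111B2A.12, and the last lies in the ERK gene mpk-1.
Y111B2A.12 (chrIII:12612654-12612683, minus strand): aaatgacaccGAGACGCAGAcatcgagtga
Y43F8B.2 (chrV:19529394-19529423, minus strand): agggagaccaGAGACGCAGAcatcattgtg
aak-2 (chrX:16796975-16797004, plus strand): aaaatagtgtGAGACGCAGAcggctggcgc
zfp-1 (chrIII:8794943-8794972, plus strand): caagagagtaGAGACGCAGAcaaatagtgg
mpk-1 (chrIII:4223789-4223818, plus strand): ggagtatcaaGAGACGCAGAcatttagatg

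Base composition moved with these words. Mean GC content was 45.5% ± 8.0 (SD, n = 350) at the summit, 38.6% and 38.7% at 200 bp to either side and 35.6% at 500 bp on the right. The summits that were not reproducible had 33.0%. GC content was higher at the summit than in the mean of the flanks in 273 peaks and lower in 72. Over all words, the number of peaks with a word at the summit only was divided by the number with it in the flanks only. The median of this ratio rose from 0.449 for words with no G or C to 2.02 for words of G and C alone. It was 1.00 for words with 3, as GAGAGA has, whose own ratio was 4.33. ATATT, of 5 letters and with no G or C, had a ratio of 0.5, near the 0.449. TGATAA, with 1 G or C, had 0.654, beside a median of 0.66 for such words. TTGTCT or TTGTGT, with 2, had 1.575 beside 0.778, and CACGTG, with 4, had 2.11 beside 1.35. The part of base composition in the calls was not tested.

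These words were also present at the other reproducible summits, and differences between classes were not tested. GAGAGA was at 35.4% of distal intronic, 36.9% of distal intergenic and 27.3% of promoter-window summits. GACGCA was at 15.1%, 14.1% and 18.7% of them, so the order of distal intronic and promoter-window peaks differed between the words. Either GAGAGA or GACGCA was at the summit of 42.0% of them, 44.0% of distal intergenic and 39.1% of promoter-window peaks. It was at 10.1% of the distal intronic summits that were not reproducible. Peaks with GAGAGA at the summit had a median signal of 57.8 and those without it 53.0.

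**Figure D5:**
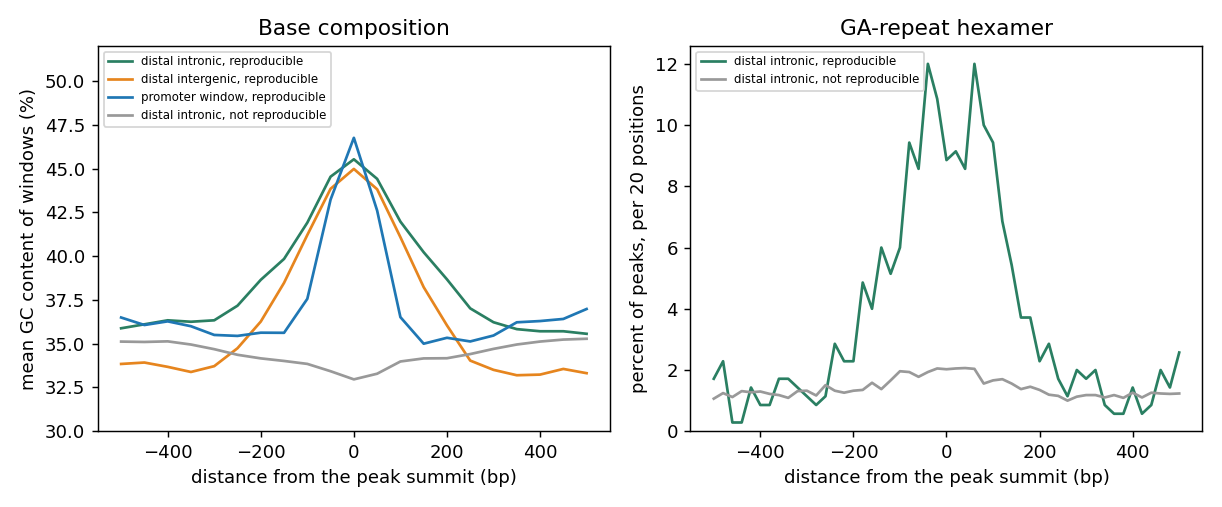
Left, mean GC content of 101-bp windows by distance in bp from the summit for 4 sets of peaks. Right, percent of distal intronic peaks in which the GA-repeat hexamer starts within 20 positions. In reproducible distal intronic peaks mean GC content is 45.5% at the summit, and the hexamer reaches 12% at 40 bp to the left and 60 bp to the right and is at 8.86% at the summit itself. In those that were not reproducible GC content falls to 33.0%, and the hexamer rises to at most 2.06%.

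The limit between reproducible and other peaks was a matter of small differences. The last 3 distal intronic peaks inside it lay in adm-2, cla-1 and ape-1, with signals of 40.41, 40.36 and 40.34. The first 3 outside lay in igcm-2, soc-2 and nhr-46, with 40.22, 40.19 and 40.13.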

How the data were processed

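The files were peak lists on assembly ce11 for 2 replicates of 1 group. Per the deposited text files, the authors called relaxed peaks for each replicate and for the pooled alignments, each with a control, and thresholded them by the irreproducible discovery rate. Aligner, caller, threshold and versions: not given in the sources used here. Each peak's signal is the authors' deposited value in column 7 and was used only to describe and rank peaks within a list. The thresholded list was the 2490 highest of the 30000 pooled relaxed peaks by signal. No read counts were given, so depth is unknown. Nothing says how the replicates were grown, so they may differ only technically.

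Summits were placed on Ensembl release 115 gene models (WBcel235). Peaks of different lists were matched at 1 bp or more. Replicate values of named peaks come from the overlapping peak whose summit is closest. Intervals are exact (Clopper-Pearson) 95% and treat peaks as independent, which neighbours are not. Motifs at the summit and in the flanks of the same peak were compared by a two-sided exact McNemar test with Benjamini-Hochberg adjustment and a threshold of 0.05. This test also treats peaks as independent, and its p-values do not measure variation between animals. The scan was tested on simulated data with the same base composition at summits and flanks, so the part of composition was not checked. Named hosts are those of the 20 highest peaks, all with 3 or more peaks, up to 4 per gene list, and the 3 peaks on either side of the limit; others are said to be chosen later. Hosts of the counted list members are named where few. Members, lists and motifs were chosen with earlier results of these data known. Python 3.11.15, numpy 2.4.6, pandas 2.3.3, scipy 1.17.1 and matplotlib 3.10.9 were used. Lists on assembly ce10 were not used.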

Additional observations from a re-analysis of the deposited data

How the results depend on the processing

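Alternatives were other promoter windows, the 2490 highest peaks of 1 replicate alone, the higher-signal 1245 peaks, other matching rules and other motif windows. Leaving out the egl-5 peaks was added after seeing the data and changed no motif call. It gave 42 words higher and 40 lower at summits. GAGAGA and ATATT kept their direction and passed the threshold under all 10 alternatives run. For motifs, values are the percent of peaks with the motif in 1 place only that had it at the summit. TTGTCT or TTGTGT, 61.2% in the reported test, no longer passed at 63.6% in the higher-signal peaks, 55.7% with 48 positions at the summit, 57.9% in peaks whose windows touch no exon and 61.5% with 1 peak per host gene. CACGTG, 67.9% in the reported test, passed at 73.9% with a promoter window of 2000 bp, 100% with 48 positions, 95% with flanks at 300 bp and 88.9% where windows touch no exon. TGATAA, 39.5% in the reported test, passed at 27.6% with 1 peak per host gene. With 1 replicate left out in turn, TTGTCT or TTGTGT ranged from 58.1% to 61.5%, CACGTG from 67.9% to 80% and TGATAA from 34.0% to 41.9%. Against 350 peaks, the higher-signal list held 154. The reproducible share of relaxed distal intronic summits, 4.35%, was 3.86% with windows at starts of every biotype and 1.91% in the higher-signal list. The share of peaks in the first places of both replicates, 58.6%, was 52% with 50% reciprocal overlap, 51.7% with summits within 100 bp and 92.2% in the higher-signal list. The first-intron share, 51.1%, was 28.9% when the longest transcript numbered the introns. Words higher and lower at summits, 40 and 39, numbered 12 and 11 in the higher-signal list and 97 and 100 with flanks at 300 bp. With 1 replicate left out in turn they ranged from 23 to 27 and from 24 to 39. GAGAGA and GACGCA were called under all 7 settings run for words. The 45 genes of the lists with a peak became 19 in the higher-signal list. The causes were not tested, apart from the higher-signal list holding fewer peaks. No paired analysis was possible because there is 1 group. Depth is unknown, so counting error could not be given.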
